A study of Mus musculus with 12 samples.

Results

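This account sets hearts of Adam12 knockout mice beside hearts of wild type mice, all taken after sham surgery. It rests on the 6 arrays titled as sham, 3 per genotype, out of 12 in the series. All animals were male C57BL/6J mice aged 10 weeks, and each heart was collected 2 weeks after its operation. The wild type sham and the knockout sham group therefore share strain, sex, age, tissue and operation and differ, by the labels, in genotype alone. The other 6 arrays, 3 per genotype after transverse aortic constriction (TAC, a narrowing of the aorta that loads the left ventricle), enter for the estimate of spread and as separate hearts in which the same genotype difference can be read. How the Adam12 allele was made is not given in the sources used here. Values are log2 signals, so that a difference of 1 is a doubling, and each gene is read on 1 probe set, the brightest where several carry its symbol.

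ADAM12 is a membrane-anchored protease with a disintegrin domain, found mainly in mesenchymal and other growing cells. It sheds growth factors of the EGF family from the cell surface, cleaves IGF-binding proteins and touches integrins and syndecans at sites of cell adhesion. In the heart it is known from work on load and hypertrophy, where shedding of HB-EGF feeds the EGF receptor. A sham operation opens the chest without constricting the aorta, so this comparison asks what the genotype does without added load.

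The tissue read as heart. Myh6, the adult cardiac myosin, lay between 19.32 and 19.38 on the 6 sham arrays, and Atp2a2, the calcium pump of the sarcoplasmic reticulum, between 19.40 and 19.45. Median signals per array over all probe sets ran from 5.07 to 5.16, and arrays of 1 group correlated across genes no better than arrays of different genotype (r of 0.9956 to 0.9969 within groups, 0.9952 to 0.9970 between them). The hearts did vary in atrial markers. Of 6 measured, 4 were higher in the knockout sham hearts and 2 lower, with a median difference of 0.21. Myl7, the atrial light chain, read 14.43, 12.81 and 11.23 in wild type sham replicates 1 to 3 and 12.83, 15.97 and 12.58 in the knockout. Sln, the atrial sarcolipin, was highest in the same 2 hearts, at 16.25 and 14.58. Bmp10, another atrial marker, did not follow Myl7. It read 12.69 in wild type sham replicate 2 but 4.89 and 4.27 in knockout sham replicates 1 and 3, which were close in Myl7.

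Adam12 itself was read on a dim probe set that also carries 5830403F22Rik, under 5.78, the 95th percentile of background probe sets, on all arrays. It was 4.54, 4.46 and 4.61 in the wild type sham hearts and 4.33, 4.40 and 4.32 in the knockout sham hearts. The 3 knockout values all lay under the 3 wild type values. The difference was −0.19 ± 0.09 (SE, n = 3 per group, 95% interval −0.38 to 0.01), with an adjusted p of 0.868 in the limma fit over all 58795 probe sets. The 2-sided exact permutation test gave p = 0.1, the smallest that 20 assignments allow. Over both surgeries, with labels exchanged within surgery, the exact p was 0.005 (400 assignments), and the averaged difference was −0.28 ± 0.06. The probes may lie outside the disrupted stretch of the gene, which was not tested.

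**Figure D1:**
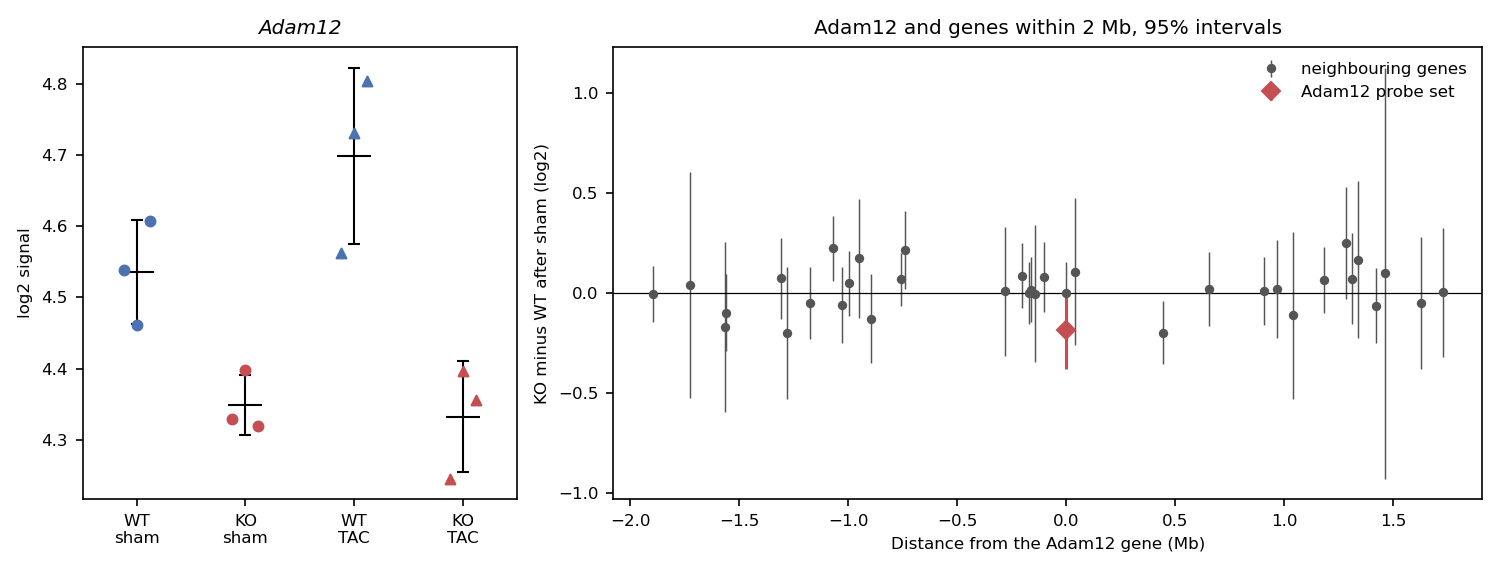
Left, log2 signal of the Adam12 probe set on each array, by genotype (WT wild type, KO knockout) and surgery, with the mean and SD of 3 arrays. Right, knockout minus wild type after sham (log2, bars are 95% intervals) for Adam12 and for 35 measured genes against their distance from it in Mb; the knockout sham arrays lie at 4.32 to 4.40, and the intervals of 32 of the 35 neighbours include 0.

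The genes beside Adam12 were read as well. Of 63 genes annotated within 2 Mb of Adam12, 35 had a probe set with their symbol alone, and 0 passed the limma test at an adjusted p under 0.05. Their median difference was 0.017, with a range from −0.20 to 0.25. Dock1, an exchange factor for Rac 0.446 Mb away, read 10.83, 10.79 and 10.77 in wild type and 10.58, 10.56 and 10.65 in knockout sham hearts. Its groups did not overlap (−0.20 ± 0.07), yet the TAC arrays gave a difference of the other sign (0.24). Fam53b, 1.07 Mb to the other side, read 6.63, 6.61 and 6.56 against 6.83, 6.77 and 6.85, which left the knockout higher by 0.22 ± 0.07.

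Across the whole array, no gene passed. Of 26989 genes tested with limma and Benjamini-Hochberg adjustment, 0 were called higher and 0 lower in the knockout (0% of genes), and the smallest adjusted p was 0.21. At an unadjusted p under 0.05 there were 1495 genes (5.54%), 761 higher (2.82%) and 734 lower (2.72%), where a uniform distribution gives 1349. The same fit called 3 genes for genotype after TAC (0.0111%). The 3 knockout arrays lay wholly above or wholly below the 3 wild type arrays for 3327 genes (12.3%). After TAC they did so for 19.2%. If the labels were exchangeable, a gene would show such a split with a probability of 0.1 (20 assignments). Groups apart are therefore common without any genotype difference.

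**Figure D2:**
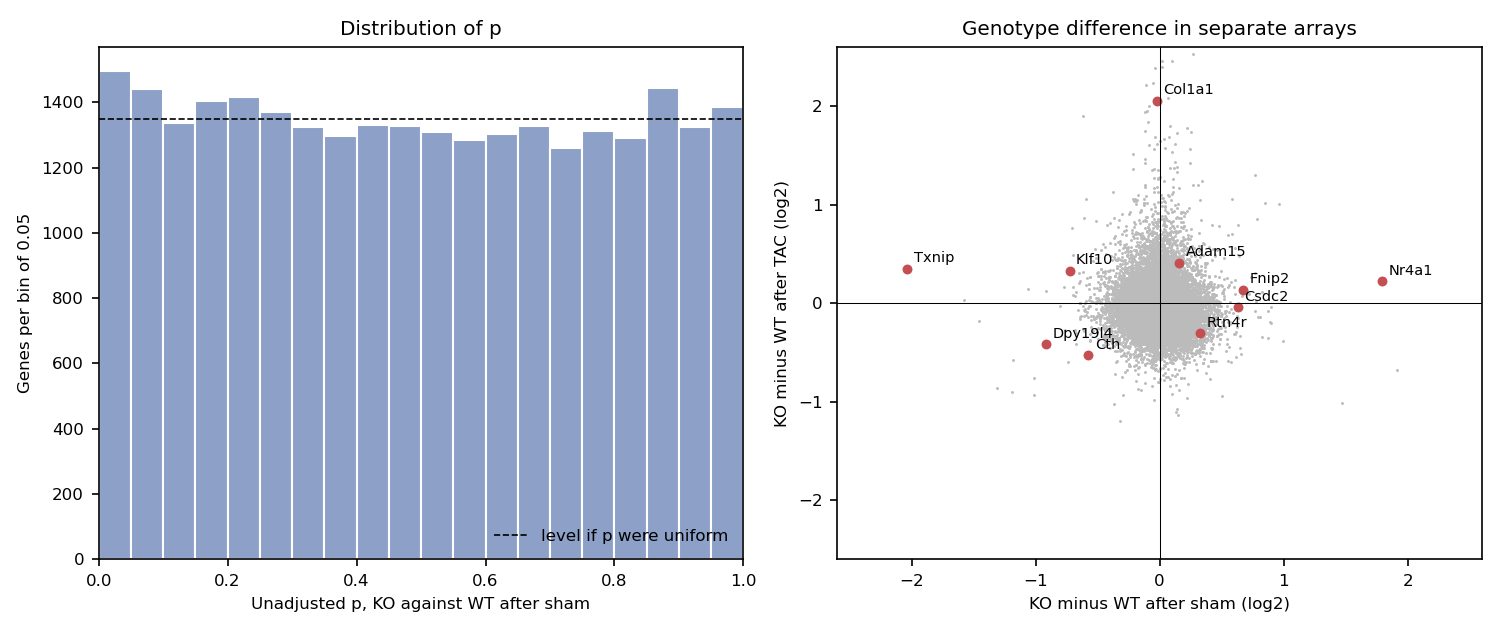
Left, number of genes per bin of unadjusted p (knockout against wild type after sham, limma), with the level of a uniform distribution dashed; the first bin holds 1495 genes and the dashed line stands at 1349. Right, each gene's knockout minus wild type difference after sham (x axis, log2) against that after TAC (y axis, log2), with 3 genes beyond the axes; the cloud has no slope (r = −0.035), Txnip and Nr4a1 stand out along the sham axis and Col1a1 along the TAC axis.

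The arrays set bounds, gene by gene, on the differences in signal. The median 95% interval reached 0.24 to either side of the measured difference, and for 26644 genes (98.7%) the whole interval lay inside a 2-fold change. For 87.9% it lay inside a 1.5-fold change. Among the brighter 13495 genes these shares were 98.3% and 89.0%. Only 12120 genes had a mean above 5.78, the 95th percentile of background probe sets. For the dimmer genes these intervals bound the signal and not the change in RNA. The differences themselves had an SD of 0.15 across genes, and 13 genes differed by more than 1. These intervals are not adjusted for the number of genes, so they do not say which changes the adjusted test could call. Larger differences went uncalled too, with Txnip at 4.10-fold and Nr4a1 at 3.47-fold. Small changes, or those in genes with wide intervals, can be missed with 3 hearts per group. A p that misses the threshold does not show that the genotypes act alike.

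Txnip had the smallest p of all. Its protein binds thioredoxin and restrains glucose uptake, and its transcription follows the level of glucose. It read 17.65, 17.10 and 16.85 in wild type sham hearts and 14.97, 14.87 and 15.66 in knockout sham hearts. All wild type sham hearts stood above all of the other 9 arrays, whose range was 14.58 to 15.66. The difference was −2.03 ± 0.27 (95% interval −2.63 to −1.44), 4.10-fold lower in the knockout, with an adjusted p of 0.21 in limma. The exact permutation test over the 6 hearts gave p = 0.1, the smallest possible. After TAC the genotypes read 15.12, 14.58 and 14.72 (wild type) against 15.16, 15.55 and 14.76 (knockout), a difference of 0.35 ± 0.27. The difference between those genotype differences was 2.38, with an adjusted p of 0.259.

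The stretch of DNA before the start of 3 such genes is printed here. Txnip and Nr4a1 had the largest differences among the 24 genes with the smallest p, and Klf11 is a transcription factor among them. Sequences are those of RefSeq on GRCm38.p6, 250 bases that end just before the annotated start, all on the + strand, with the motif in capitals. Txnip holds CACGNG followed, after 5 bases, by CACGNG again, the paired form known as a carbohydrate response element (searched on both strands), which 15 of 32851 promoter windows of that length hold (0.046%). Klf11 holds the E-box CACGTG, found in 1978 windows (6.021%). Nr4a1 holds TGACG, the core of the cAMP response element, 4 times, each on the opposite strand and so printed as its complement, where 5836 windows (17.765%) hold it at least once on either strand.
Txnip, chr3:96557707-96557956: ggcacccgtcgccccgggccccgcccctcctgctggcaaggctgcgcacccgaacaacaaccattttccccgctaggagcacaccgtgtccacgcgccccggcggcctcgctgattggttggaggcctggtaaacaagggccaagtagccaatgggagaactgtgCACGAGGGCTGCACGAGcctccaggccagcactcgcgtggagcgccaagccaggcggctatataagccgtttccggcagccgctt
Klf11, chr12:24651121-24651370: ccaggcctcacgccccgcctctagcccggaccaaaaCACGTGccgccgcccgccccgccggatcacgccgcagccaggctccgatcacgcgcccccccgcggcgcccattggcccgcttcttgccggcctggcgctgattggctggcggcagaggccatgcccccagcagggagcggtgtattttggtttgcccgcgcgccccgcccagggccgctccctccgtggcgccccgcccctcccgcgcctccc
Nr4a1, chr15:101266596-101266845: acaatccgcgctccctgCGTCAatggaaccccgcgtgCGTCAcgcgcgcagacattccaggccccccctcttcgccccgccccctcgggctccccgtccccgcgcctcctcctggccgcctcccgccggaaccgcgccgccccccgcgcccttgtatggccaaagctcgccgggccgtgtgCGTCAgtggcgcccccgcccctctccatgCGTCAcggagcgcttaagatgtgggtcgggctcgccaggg
Of the 24 genes with the smallest p, 12 per direction, 17 had a sequence. The paired motif was in Txnip alone, CACGTG in Get3, Klf11 and Nop2, and TGACG in 6 of them, Fnip2, Gfy, Nop2, Nr4a1, Rtn4r and Srp54c. A match of letters is a description and shows no bound factor.

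Beside Txnip, the genes that read lower in the knockout with the smallest p included transcription factors and genes of several other roles. Klf11, a Krüppel-like factor of the TGF-beta response, read 7.94, 7.83 and 7.96 in wild type and 7.34, 7.25 and 7.46 in knockout sham hearts (−0.56 ± 0.10). Its relative Klf10 read 8.05, 7.41 and 7.60 against 7.02, 6.97 and 6.90 (−0.73 ± 0.15). The groups did not overlap for either gene, with adjusted p of 0.418 and 0.66 in limma. For Klf10 the TAC hearts were apart in the other direction, with 7.24, 6.94 and 7.23 in wild type and 7.39, 7.39 and 7.62 in the knockout. The remaining genes were Rbm8a2, Dpy19l4, Srp54c, Gfy, Prrg1, Abhd1, Fam110c, Trav7n-4 and Bach2, with differences between −0.91 and −0.36. Rbm8a2 and Srp54c are copies of Rbm8a and Srp54, so their probes may read the relatives too, which was not tested.

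Among the genes that read higher, Nr4a1 differed most. It encodes an orphan nuclear receptor that is switched on within minutes of many stimuli. It read 7.69, 8.01 and 7.67 in wild type and 10.12, 9.11 and 9.52 in knockout sham hearts, a difference of 1.80 ± 0.40 (95% interval 0.91 to 2.68, adjusted p 0.839 in limma). The TAC hearts of both genotypes spanned the gap, from 7.82 to 9.44. Fnip2, a partner of folliculin in nutrient sensing, read 8.51, 8.52 and 8.48 against 9.14, 9.09 and 9.30 (0.67 ± 0.10). Csdc2, a cold shock domain protein that binds RNA, read 7.97, 7.90 and 7.81 against 8.48, 8.71 and 8.38 (0.63 ± 0.10). For Fnip2 and Csdc2 the knockout sham hearts were above all of the other 9 arrays. Ighv5-6, an immunoglobulin heavy chain segment, differed by 0.90 ± 0.14, and Lrrc52, an accessory subunit of potassium channels, by 0.79 ± 0.16, on a dim probe set. The other 7 higher genes, Get3, Rtn4r, Pcp4l1, Nop2, Ucma, Dlx6os2 and Thap2, differed by 0.32 to 0.47.

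**Figure D3:**
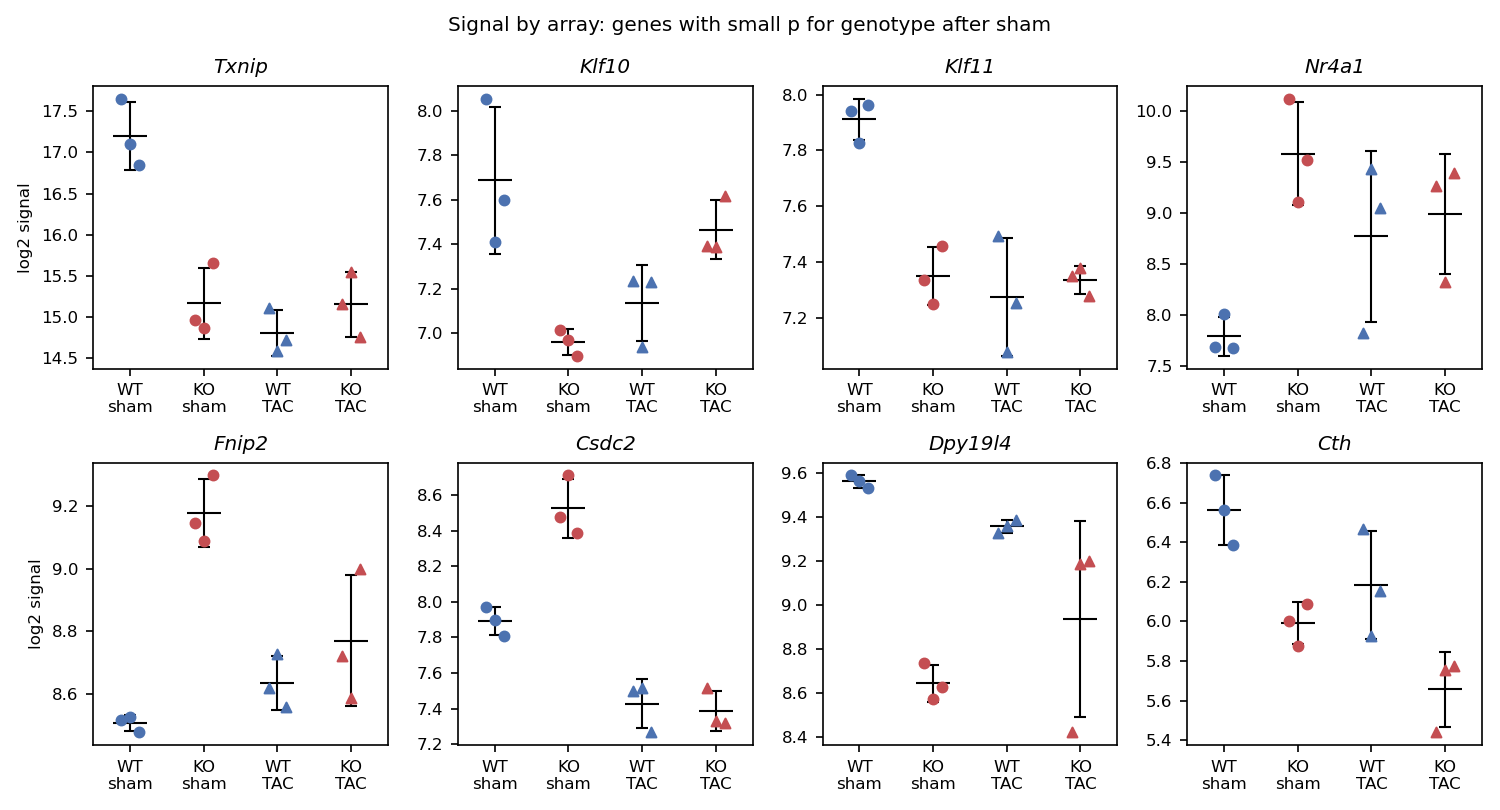
Log2 signal on each array for 8 genes, by genotype and surgery (WT wild type, KO knockout), with the mean and SD of 3 arrays. In the sham groups no wild type point reaches a knockout point in any panel. Txnip is high in wild type sham hearts alone (16.85 to 17.65), and Dpy19l4 and Cth are lower in the knockout after both operations.

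The TAC arrays share no heart with the sham arrays, so the genotype difference can be read in them anew. The differences after sham and after TAC had r = −0.035 and rho = −0.044 across 26989 genes, which are not independent replicates, and 48.2% had the same sign. Of the 1495 genes with an unadjusted p under 0.05 after sham, 703 (47.0%) had the same sign after TAC. Of the 24 named genes, 11 had the same sign. Their TAC groups were apart in the same direction for 6, beside 4 in the opposite direction (Klf10, Rtn4r, Pcp4l1 and Rbm8a2). Groups apart in 1 direction after both operations were found for 362 genes (1.34%), and groups apart in opposite directions for 334.

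Of the 24 genes 7 had a mean at or under that background level of 5.78 (Lrrc52, Rtn4r, Ucma, Dlx6os2, Gfy, Fam110c and Trav7n-4), so their differences rest on dim signals. For many of the 24 genes 1 sham group stood away from everything else. The wild type sham hearts lay outside the range of the other 9 for 11 of the 24 genes, 8 of them among the 12 lower ones, while 2.05% of all genes did so. The knockout sham hearts lay outside for 9, 8 of them among the 12 higher ones, while 2.29% of all genes did. Because these genes were chosen by their sham difference, that count is a description. The same choice favours calls among them, and the direction of those calls, wherever the sham hearts are used again. The counts that follow are therefore descriptions too, and their shares cannot be set against those of all genes. The comparison of TAC with sham inside wild type shares the wild type sham hearts. At an adjusted p under 0.05 in limma it called 48 of all genes (0.178%) and 5 of the 24, all lower after TAC: Txnip (−2.39), Klf11 (−0.64), Rbm8a2 (−0.43), Prrg1 (−0.58) and Abhd1 (−0.67). Inside the knockout, with the knockout sham hearts shared, the same test called 3444 of all genes (12.8%) and 10 of the 24. Lower after TAC there were Lrrc52 (−1.19), Csdc2 (−1.14), Pcp4l1 (−0.90), Ucma (−0.56), Ighv5-6 (−0.54), Rtn4r (−0.47), Fnip2 (−0.41) and Prrg1 (−0.37), and higher were Srp54c (0.71) and Klf10 (0.50).

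Next come the genes with the smallest averaged p among those 362 whose groups were apart in 1 direction after both operations. They were chosen for that pattern, which was about as common as the 334 opposite cases, and none was called. Dpy19l4, a relative of the enzymes that attach mannose to tryptophan, read 9.59, 9.56 and 9.53 in wild type and 8.74, 8.57 and 8.63 in knockout sham hearts. After TAC it read 9.33, 9.36 and 9.38 against 8.42, 9.19 and 9.20, so that all 6 knockout hearts stood under all 6 wild type hearts. The averaged difference was −0.67 ± 0.12 with an adjusted p of 0.258 in limma. Without knockout TAC replicate 1, the heart at 8.42, the sham difference of this gene had an adjusted p of 0.00172 and was the only one called.

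Cth, the enzyme that makes cysteine and hydrogen sulfide, read 6.74, 6.56 and 6.39 against 6.00, 5.88 and 6.09 after sham (−0.57 ± 0.14) and differed by −0.53 ± 0.14 after TAC. Lsmem1, a membrane protein, read 10.91, 11.11 and 10.87 against 10.68, 10.13 and 10.34 (−0.58 ± 0.16) and differed by −0.54 ± 0.16 after TAC. Reading lower after both operations were further Prrg1 (−0.37 after sham, −0.16 after TAC), Eya1 (−0.21, −0.36) and Slf1 (−0.21, −0.41). Reading higher after both were Get3 (0.36 after sham), Lsp1 (0.27), Slc20a1 (0.26), Pdlim5 (0.18, 95% interval −0.01 to 0.36), Lmna (0.16, −0.03 to 0.34) and the protease Adam15. After TAC the differences were 0.17 (Get3), 0.52 (Lsp1), 0.52 (Slc20a1), 0.45 (Pdlim5) and 0.46 (Lmna), larger than after sham for all of these but Get3. Adam15, a relative of Adam12, read 6.97, 6.89 and 6.87 in wild type and 7.07, 7.11 and 7.02 in knockout sham hearts (0.16 ± 0.07), and its TAC difference was 0.41 ± 0.07. Averaged over operations, 0 of 26989 genes were called in limma and 2739 (10.1%) had an unadjusted p under 0.05. Without wild type TAC replicate 2 that comparison called 141. Among them were Cth, Slf1, Lsp1, Slc20a1, Pdlim5, Lmna and Adam15, but also the matrix genes Col1a1 (1.32 averaged) and Postn (1.42). Over the alternatives the sham difference ran from −0.07 to 0.03 for Col1a1 and from −0.02 to 0.15 for Postn. A call for the average therefore need not mean a difference after sham.

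No other member of the ADAM family and no substrate or partner of ADAM12 was called. Of 10 measured family members, 7 were above 0, with a median of 0.03, beside a median of 0.0051 and 51.9% above 0 over all genes. Adam19 differed most, by 0.32 ± 0.39 (95% interval −0.53 to 1.17). Adam10, a major sheddase, differed by −0.10 ± 0.07 with groups apart, Adam17 by −0.06 ± 0.09 and Adam9 by 0.04 ± 0.09. Of 20 measured substrates and partners of ADAM12, 7 were above 0 and the median was −0.05. Igfbp3, a binding protein that ADAM12 cleaves, read 8.48, 8.76 and 8.16 against 8.29, 8.05 and 7.97 (−0.36 ± 0.19), with overlapping groups. Igfbp5, the other cleaved binding protein, differed by −0.05 ± 0.19, and the ligand Egf by −0.26 ± 0.13. Hbegf was not analysed here.

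Of 10 measured EGF ligands and receptors 3 were above 0, with a median of −0.07. The receptors lay at −0.19 ± 0.20 (Egfr), 0.01 ± 0.07 (Erbb2), −0.11 ± 0.07 (Erbb3, groups apart) and 0.25 ± 0.19 (Erbb4). Of 11 genes of the IGF axis 6 were above 0, with the receptor Igf1r at 0.04 ± 0.07. Of 16 measured TGF-beta and BMP genes, 7 were above 0, with a median of −0.03. Of 19 integrins, 10 were above 0.

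Genes of load and scar did not differ beyond their spread. Of 9 measured fetal and hypertrophy genes 2 were above 0 and 7 below, with a median of −0.06. None was called, and 51.9% of all genes were above 0. Nppb, the natriuretic peptide of the stretched ventricle, read 13.02, 14.06 and 13.37 in wild type and 13.19, 13.12 and 12.60 in knockout sham hearts (−0.51 ± 0.32, 95% interval −1.21 to 0.20). Myh7, the fetal myosin, differed by −0.04 ± 0.25, Acta1 (skeletal actin) by −0.17 ± 0.37 and Nppa by −0.06 ± 0.46. Nppa was highest in the same 2 sham hearts as Myl7, at 19.47 and 19.24, and the part of atrial tissue in its difference was not tested. Of 28 measured collagens and matrix genes 12 were above 0, with a median of −0.03, where the same list had a median of 1.65 for genotype after TAC. Col1a1 differed by −0.02 ± 0.42, Col3a1 by −0.11 ± 0.38 and Postn, the marker of activated fibroblasts, by 0.07 ± 0.45. These SEs come from the spread of all 4 groups, which is wide for matrix genes after TAC: within the sham groups Col1a1 lay between 9.77 and 9.97 in all 6 hearts.

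Of 15 measured contractile and calcium handling genes 12 were above 0, with a median of 0.04. Sln differed most, by 0.85 with an interval from −1.64 to 3.34, and Tnni3, cardiac troponin I, differed by 0.18 ± 0.08 with groups apart. Atp2a2 differed by 0.02 ± 0.06 (95% interval −0.11 to 0.15), Myh6 by 0.02 ± 0.06 (−0.11 to 0.15), Pln, which inhibits that pump, by 0.04 ± 0.08 and Ryr2, the calcium release channel, by 0.09 ± 0.08. All 6 ventricular markers were above 0. Irx4, a ventricular transcription factor, read 7.68, 7.66 and 7.51 against 8.06, 7.88 and 7.92 (0.34 ± 0.10, adjusted p 0.891 in limma) and differed by −0.38 in the TAC hearts.

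In the lists of energy metabolism 0 genes were called. Of 19 measured genes of oxidative phosphorylation, 18 were above 0, with a median of 0.05, and the largest was Cox7a1, a subunit of cytochrome oxidase in muscle, at 0.20 ± 0.13. Quantile normalization moved that median to 0.10. Of 16 genes of glycolysis and glucose uptake, 15 were above 0, with a median of 0.09, and Txnip was the only one below. Ldha, which makes lactate, differed by 0.13 ± 0.06 and Pgk1 by 0.17 ± 0.09, with groups apart for both. Of 19 genes of fatty acid oxidation, 10 were above 0 and the median was 0.0046. The groups were apart for 5, all higher in the knockout, where 6.43% of all genes were. Slc27a1, a fatty acid transporter, read 10.06, 9.84 and 10.09 against 10.24, 10.34 and 10.32 (0.30 ± 0.15). Ppara, the receptor that drives this program, differed by 0.32 ± 0.17. Of 10 measured targets of that receptor 4 were above 0, with a median of −0.0053, and the groups overlapped for all 10. They ran from Ucp3 at −1.18 ± 0.48, which spread from 7.44 to 9.84 within the wild type, to Acot1 at 0.28 ± 0.18.

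Of 16 measured chaperone and stress genes 12 were above 0, with a median of 0.04. The groups were apart for 6, with 4 higher and 2 lower in the knockout, where 12.3% of all genes had groups apart. Dnajb1, a cytosolic co-chaperone, read 8.10, 8.41 and 8.27 in wild type and 8.54, 8.62 and 8.87 in knockout sham hearts (0.41 ± 0.13), and Bag3 differed by 0.24 ± 0.14. The 2 lower genes both encode chaperones of the endoplasmic reticulum. Hspa5 (BiP) read 14.07, 14.20 and 13.78 against 13.60, 13.68 and 13.63 (−0.38 ± 0.15), and Hsp90b1 (GRP94) differed by −0.32 ± 0.11. Atf4, the factor of the integrated stress response, differed by 0.31 ± 0.12. None was called, and the 2 lower genes were set together after their values were seen.

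Nr4a1 had the largest difference of its list. Of 14 measured immediate early genes 9 were above 0, with a median of 0.05. Fos differed by 0.04 ± 0.11, Jun by 0.05 ± 0.16 and Nr4a2 by −0.0044 ± 0.14, while Nr4a3 differed by 0.54 ± 0.28. Of 12 glucocorticoid genes, 8 were above 0, with a median of 0.19, from Zbtb16 at −0.46 ± 0.48 to Ddit4 at 0.78 ± 0.44. Of 17 clock genes 6 were above 0, with a median of −0.04. Bhlhe40, a repressor, was highest at 0.82 ± 0.27, and the output gene Dbp lay at −0.32 ± 0.77.

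Markers of other cells were read for the whole list each time. In bulk hearts fewer cells of a type and less RNA per cell cannot be told apart. Among macrophage markers, Ccr2 of recruited monocytes read 5.89, 6.08 and 5.67 against 5.39, 5.34 and 5.14 (−0.59 ± 0.29, groups apart), while Cd68 lay at 0.26 ± 0.16 and Lyve1 at −0.02 ± 0.29, and 4 of 8 were above 0. All 6 smooth muscle and pericyte markers were below 0, with a median of −0.11. Of 5 nerve markers 4 were below 0, where 51.9% of all genes were above 0. The groups were apart for 3, all with the knockout lower. Of all genes, 5.9% had groups apart in that direction. Cdh19 of Schwann cells read 7.87, 7.69 and 7.81 against 7.60, 7.39 and 7.22 (−0.39 ± 0.16). The mean over the nerve markers ran from 6.04 to 6.21 in wild type and from 5.90 to 6.01 in the knockout. Of 8 fibroblast markers 4 were above 0, with a median of 0.00. Of 9 endothelial markers 5 were above 0, with a median of 0.03. Endothelial groups were apart for 1 marker higher and 2 lower in the knockout. The part of these cell types in the differences of other genes was not tested.

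Immune and inflammatory genes gave the following counts. Of 14 interferon-induced genes 3 were above 0, with a median of −0.07, and Oas1a, an antiviral enzyme, lay at −0.29 ± 0.18 with groups apart. Of 13 genes of acute inflammation 7 were above 0, with a median of 0.0011, and Il6 lay at −0.16 ± 0.16. Of 8 neutrophil markers 3 were above 0, with Cxcr2, a chemokine receptor, at −0.24 ± 0.09 and Csf3r at −0.19 ± 0.09. Of 9 T and NK cell markers 5 were above 0 and of 6 B cell markers 3. On every sham array the mean over the lymphocyte, neutrophil and inflammation markers, and over the proliferation and mesothelial genes below, lay under 5.78, the 95th percentile of background probe sets. Most of their members lay under it too, Cxcr2 and Csf3r included. Wt1 had means of 5.43 in wild type and 5.69 in knockout sham hearts, under that level, but read 5.83 in knockout sham replicate 2.

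Lists of dividing cells and of tissues around the heart were read in the same way. Of 17 proliferation genes 11 were above 0, with a median of 0.0073 and Mki67 at 0.10 ± 0.47. Of 6 mesothelial markers 5 were above 0, with a median of 0.18 that became −0.03 without knockout sham replicate 2, and Wt1, a factor of the epicardium, lay at 0.26 ± 0.10 with groups apart. Of 7 white fat markers 1 was above 0, with a median of −0.17, and Car3 lay at −0.65 ± 0.51. Of 6 brown fat markers 5 were above 0, with a median of 0.12. Of 10 markers of skeletal muscle 3 were above 0, with a median of −0.03. Of 13 matrix proteases and their inhibitors 7 were above 0, with Mmp2, a gelatinase, at 0.25 ± 0.44 and Timp4 at −0.15 ± 0.44.

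**Figure D4:**
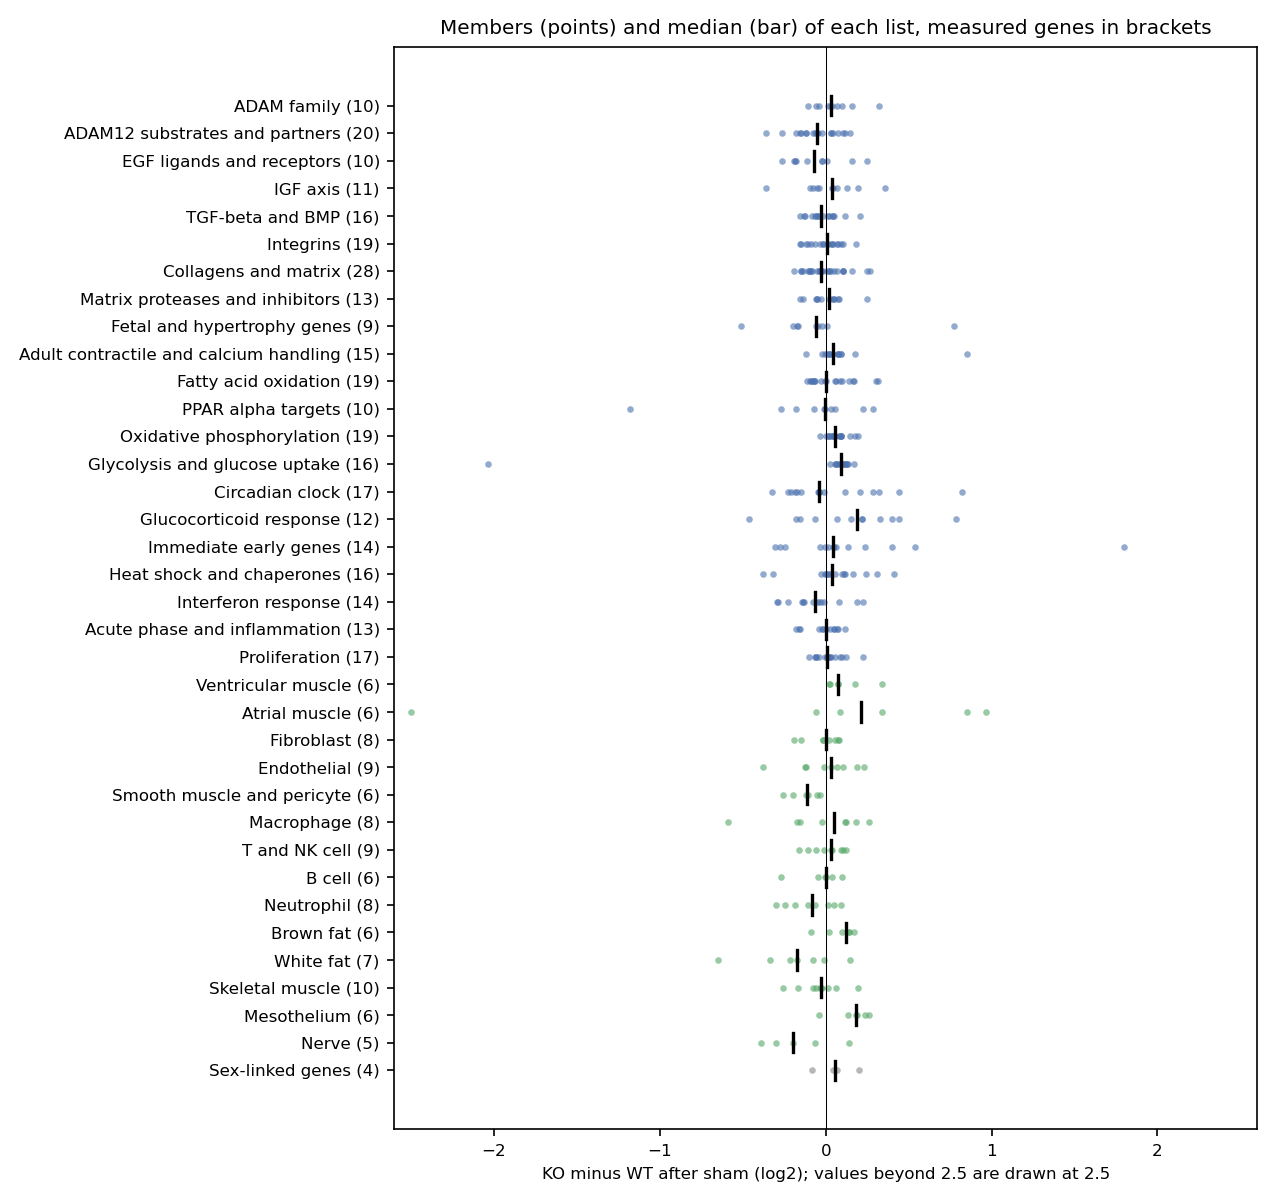
Knockout minus wild type after sham (log2) for each measured member of 36 lists (points; blue pathways, green cell types, grey a check) and the list's median (black bar). Medians run from −0.20 (nerve) to 0.21 (atrial muscle), 31 of all 38 lists lie within 0.1 of 0, and Txnip, Nr4a1 and Ucp3 stand away from their lists; Bmp10, at −5.26, is drawn at the edge.

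Some large differences were found in genes that varied from heart to heart within a group. These were picked out after their values were seen, and the cause of their differences was not tested. Bmp10, a growth factor of the atria, had the largest difference of any gene, −5.26 ± 2.84, and read 14.27, 12.69 and 7.88 in wild type and 4.89, 9.91 and 4.27 in knockout sham hearts. Its groups overlapped, and its TAC hearts ran from 4.40 to 14.97. Tfrc, the transferrin receptor that brings iron into cells, read 12.14, 11.62 and 10.70 against 10.96, 9.46 and 9.33 (−1.57 ± 0.45, adjusted p 0.891 in limma), and its TAC hearts differed by 0.03. Pdk4, which holds back glucose oxidation, differed by −0.18 ± 0.58 and ran from 15.80 to 18.25 within the wild type alone.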

How the data were processed

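Total RNA of 12 hearts was hybridized to Affymetrix Clariom D mouse arrays. The deposited log2 signals came from Affymetrix Expression Console, per the submitters' processing notes, with version, summarization and normalization not given in the sources used here. Of 65527 probe sets, 6732 controls were left out. Genes were the probe sets with exactly 1 symbol (27268 of 58795; 1932 had several, 29595 none), the brightest over all arrays where several shared it, which gave 26989; 744 names were updated through RefSeq. Adam12 shares its probe set and was fitted over all 58795.

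Differences were tested with limma 3.58.1 (R 4.3.3), 1 mean per group over 12 arrays, 2-sided, with Benjamini-Hochberg adjustment over all genes and calls at an adjusted p under 0.05. No dim genes were filtered. The labels call the hearts biological replicates; the number of arrays limits the precision.

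Members and 38 gene lists (535 entries, 429 measured, 13 on shared probe sets, 93 not analysed here) were chosen with earlier results of these data known; lists were described, not tested, and 2 with under 3 measured genes (antigen presentation, red cell) were left out. Named genes were Adam12, the 12 smallest p per direction (0 were called), the 6 smallest averaged p per direction with groups apart after both operations, the first 4 of each list, fixed heart genes and neighbours. Predicted genes, small RNAs and smell receptors were passed over, 21 among the first 46. Genes named beyond these were chosen after their values were seen. Alternatives were other normalizations, filters, variance models, array weights, all probe sets, the 6 sham arrays alone, Myl7 as a covariate, a replicate block and each array left out.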

Additional observations from a re-analysis of the deposited data

How the results depend on the processing

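The count of genes called after sham was 0 under every one of 22 alternatives except that it was 1 without knockout TAC replicate 1, a range of 0 to 1 over arrays left out. The averaged count ranged from 0 to 141 over arrays left out, with 141 without wild type TAC replicate 2 and 1 without knockout TAC replicate 1. With the replicate number as a block the averaged count was 1, Serpina3n, a secreted serpin (1.54, adjusted p 0.0359 in limma), and 0 after sham. Hearts with the same number did not deviate together after sham (r of 0.057, −0.068 and 0.178). After TAC r was 0.208, 0.083 and 0.095, so not every pair exceeded 0.1 and the numbers were not taken to pair the samples. All 24 genes with the smallest p kept their sign under each alternative in which they were tested. Their sham groups did not overlap, so leaving out or weighting arrays, filters and variance models could not change a sign. That count is therefore a description and no test of these genes. Txnip ran from −2.28 to −1.81 with adjusted p from 0.104 to 0.885, and Adam12 from −0.22 to −0.15. Of 45 genes followed, 40 kept their sign; Acta1, Pdk4 (−0.83 to 0.39), Postn, Nppa and Col1a1 did not, and the cause was not tested. Medians moved by more than their spread for 10 of 36 lists (oxidative phosphorylation, EGF, IGF, nerve, ventricular muscle, endothelial, T and NK cell, B cell, brown fat, skeletal muscle), and 22 of the 36 changed sign under some alternative. The arrays' background limits dim genes: 12120 genes exceeded a mean of 5.78, the 95th percentile of background probe sets.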
